A study of Mus musculus with 22 samples.

Results

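The nuclear genes for subunits of respiratory complexes II to V were followed in mouse blastocysts at embryonic day 3.5. The genes were those whose array symbol is Sdha, Sdhb, Sdhc or Sdhd or begins with Uqcr, Cox4, Cox5, Cox6, Cox7, Cox8 or Atp5. A probe detected (detection p under 0.05) on at least 3 of the 22 arrays was also required. Of 45 symbols that matched, 40 were detected in this sense, out of 9345 genes tested on the whole array. They comprised 3 genes of complex II, 6 of complex III, 15 of complex IV and 16 of complex V.

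Each array held amplified RNA of blastocysts of the B6 or the CD1 background. Embryos were either grown in KSOM, in HTF (human tubal fluid medium) or in ISM1, which are media for the culture of embryos before implantation, or developed in vivo. Each combination of strain and growth condition had 3 arrays, which the labels call biological replicates, except CD1 embryos in KSOM with 1. The stage at which culture began and the number of embryos behind each array were not given in the sources used here. All values below are log2 intensities after background correction and quantile normalization, and a difference is between group means on that scale.

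Complexes I to IV form the electron transport chain of the inner mitochondrial membrane, and complex V is the ATP synthase that the resulting proton gradient drives. Complex II, succinate dehydrogenase, passes electrons from succinate to ubiquinone. Complex III, the cytochrome bc1 complex, passes them on to cytochrome c, and complex IV, cytochrome c oxidase, passes them to oxygen. The mouse blastocyst is known for a rise in oxygen consumption over the earlier cleavage stages, much of it in the trophectoderm, where ATP feeds the sodium pump that fills the blastocoel. The nuclear factors NRF1, GABPA (an ETS family member) and YY1 are known regulators of these genes.

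The 250 bases before the start of 5 member genes are shown because these genes had the smallest p of their complex in the comparison of HTF with in vivo growth over both strains, or, for Cox5b, in the difference between the strains. Uqcrb had a smaller p than Uqcr11 in complex III but no promoter in the table used. Sequences are from RefSeq, build GRCm38.p6, and run 5′ to 3′ on the strand of the gene. Capitals mark TGCGCA (an NRF1 motif) and CGGAAG (the core of ETS family sites) on either strand.
Sdhd chr9:50603850-50604099, minus strand: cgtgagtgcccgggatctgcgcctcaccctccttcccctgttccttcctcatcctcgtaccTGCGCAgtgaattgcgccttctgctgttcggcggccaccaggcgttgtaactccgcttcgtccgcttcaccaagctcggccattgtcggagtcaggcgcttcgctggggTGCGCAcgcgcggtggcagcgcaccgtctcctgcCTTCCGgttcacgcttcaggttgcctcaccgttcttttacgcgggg
Uqcr11 chr10:80406822-80407071, minus strand: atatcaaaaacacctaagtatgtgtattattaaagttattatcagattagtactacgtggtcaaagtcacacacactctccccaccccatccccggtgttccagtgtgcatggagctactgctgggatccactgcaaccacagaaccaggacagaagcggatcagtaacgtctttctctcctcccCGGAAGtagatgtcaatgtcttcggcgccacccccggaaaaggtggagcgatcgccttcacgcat
Cox6b1 chr7:30626115-30626364, minus strand: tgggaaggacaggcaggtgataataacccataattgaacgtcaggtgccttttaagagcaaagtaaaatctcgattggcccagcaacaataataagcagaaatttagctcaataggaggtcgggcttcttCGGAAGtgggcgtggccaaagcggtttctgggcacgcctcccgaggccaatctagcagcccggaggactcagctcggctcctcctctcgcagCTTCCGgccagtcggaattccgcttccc
Cox5b chr1:36691237-36691486, plus strand: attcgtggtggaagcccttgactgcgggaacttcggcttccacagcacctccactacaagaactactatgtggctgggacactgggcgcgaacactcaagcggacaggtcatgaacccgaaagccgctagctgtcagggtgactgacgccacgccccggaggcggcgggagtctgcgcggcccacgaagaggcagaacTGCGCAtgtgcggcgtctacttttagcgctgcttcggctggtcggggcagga
Atp5g1 chr11:96075632-96075881, minus strand: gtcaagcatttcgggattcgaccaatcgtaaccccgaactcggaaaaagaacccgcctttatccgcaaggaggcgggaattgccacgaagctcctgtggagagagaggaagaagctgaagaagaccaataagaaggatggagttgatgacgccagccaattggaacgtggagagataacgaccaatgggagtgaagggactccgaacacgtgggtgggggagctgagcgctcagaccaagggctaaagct

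The Sdhd promoter held 2 NRF1 motifs and 1 ETS core, that of Cox5b 1 NRF1 motif, that of Uqcr11 1 ETS core and that of Cox6b1 2 ETS cores. The Atp5g1 window held neither. Among the members, 31 matched the promoter table with 34 promoters in all. The ETS core was present in 15 of these 34 promoters (44.1%), against 23.7% of 9830 promoters of tested genes and 13.6% of all 32851 promoters. The NRF1 motif was present in 6 (17.6%), against 11% of promoters of tested genes. AAGATGG, a YY1 motif searched in the same way on both strands, was present in 1 (2.94%), against 4.48%. The last letters of the ETS core can also be the first of the YY1 motif, so that 1 stretch can count for both. These shares describe letters in a fixed window and no binding was measured.

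Most subunit genes were well expressed in every group. All 22 arrays detected 31 of the 40 members, including all 3 of complex II and all 6 of complex III, 11 of complex IV and 11 of complex V. The probe of Atp5b, the catalytic beta subunit, stood at 14.69 to 15.12 over all arrays. It was among 8 members within the top 1% of probes by intensity. Cox7b had the widest spread among replicates, with a within-group SD of 0.92, and Atp5b the smallest, with 0.11. The median within-group SD was 0.41 for the members and 0.54 for all tested genes.

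**Figure D1:**
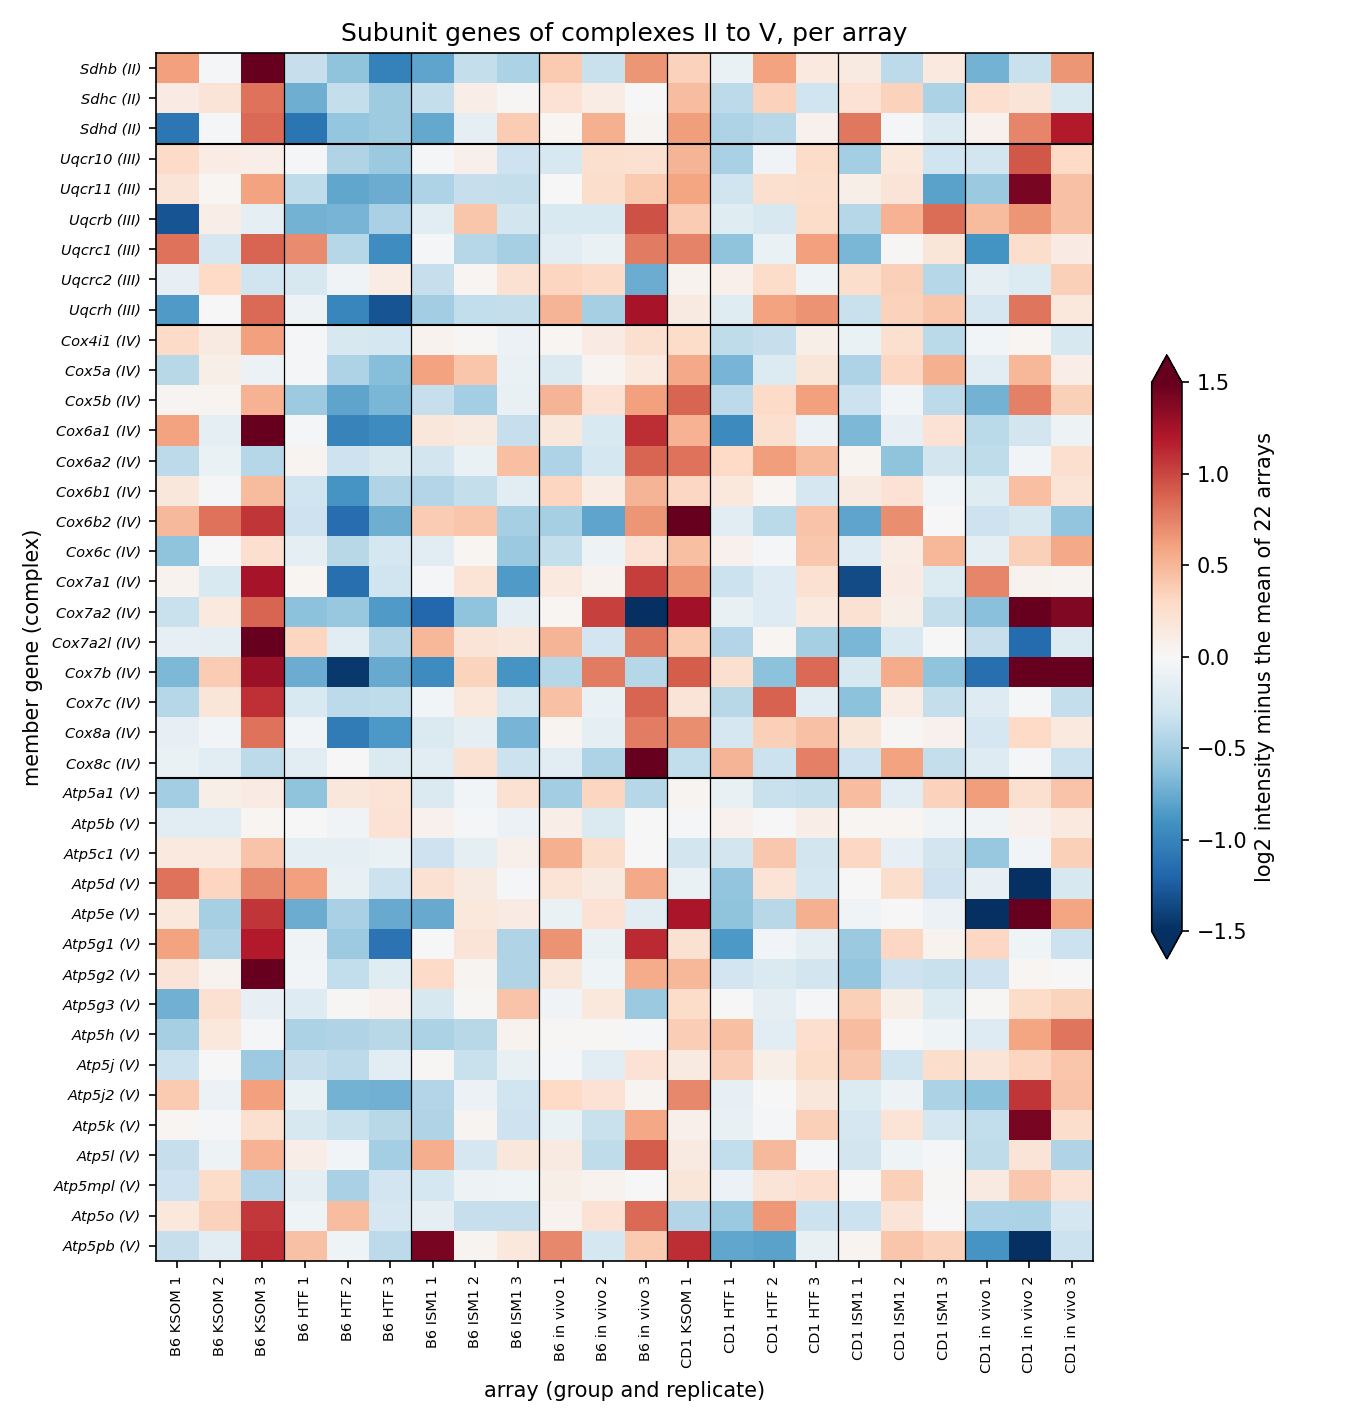
Level of each of the 40 member genes (rows, with the complex in brackets) on each of the 22 arrays (columns), as log2 intensity minus the mean of the gene over all arrays, with a colour scale cut at -1.5 and 1.5. The B6 HTF columns are mostly blue, and B6 KSOM replicate 3 and B6 in vivo replicate 3 are mostly red, with array medians over the members of 0.62 and 0.46.

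Tissue-restricted forms differed in how often they were detected. Cox6a2, the heart and muscle form of subunit 6A, was detected on 5 arrays, and Cox8c, a testis form of subunit 8, on 3. Cox6b2, a testis form of subunit 6B, was detected on 17 arrays and read 4.92 to 7.60 over all 22. Cox7a1, the heart and muscle form of subunit 7A, was detected on all 22 arrays at 5.99 to 8.58. Cox4i2, Cox7b2, Cox8b, Uqcrfs1 (the Rieske iron-sulfur protein) and Uqcrq were not detected on 3 arrays and were not tested. In complex V, Atp5k and Atp5l, for membrane subunits e and g, were detected on 4 and 5 arrays, and Atp5o, of the peripheral stalk, on 8. A probe near background says little about the transcript, and 36 members rested on a single kept probe. Sdha was not analysed here.

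B6 blastocysts grown in HTF had lower values of subunit genes than B6 blastocysts from in vivo development, in all 4 complexes. The difference was negative for 37 of 40 members, against 49.2% of all tested genes, and its median was -0.45 for the members and 0.01 for all genes. Of the 31 members detected on all arrays, 28 had a negative difference. All 3 HTF arrays lay below all 3 in vivo arrays for 17 members, against 5.22% of all genes, and above them for 0, against 5.6%. By complex the median difference was -0.89 for complex II, -0.61 for III, -0.59 for IV and -0.36 for V. Atp5a1 (0.14), Atp5b (0.10) and Atp5g3 (0.11) were the members with a positive difference. The probes of Atp5b and Atp5g3 reached raw intensities of 36201 and 35207, against 39540 for the brightest of all probes. Whether that brightness limited their differences was not tested. Genes that move together are not independent, so these counts describe the group and are not a test.

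No member passed the test on its own in that comparison. With limma and adjustment over all 9345 genes, 0 of 40 members were called, against 0.0107% of all genes (1 gene), and the smallest adjusted p of a member was 0.815. At an unadjusted p under 0.05 there were 8 members, all lower in HTF, against 1.72% of all genes lower at that level. With limma's array quality weights, 14 members were called, all lower in HTF, against 6.3% of all genes called lower. In B6 in vivo those weights were 5.62, 0.764 and 0.367 for replicates 1 to 3, and in B6 HTF 0.925, 4.83 and 1.38, so that fit rests mostly on 1 array a group. Under the other settings that kept these arrays, and with any of the 6 arrays left out, 0 members were called.

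A blood marker differed between the groups of this comparison. Of the 4 blood markers, 2 had a probe: Ptprc was detected on 0 arrays and Hba-a1, an alpha globin gene, on 3. Hba-a1 read 5.22, 7.24 and 5.81 in B6 in vivo and 4.72, 4.74 and 4.56 in B6 HTF, with a linear level of 37.2 to 151 and of 23.5 to 26.8. Among these arrays only B6 in vivo replicates 2 and 3 detected Hba-a1, so its HTF readings are near background. Its part in the result was not tested.

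**Figure D2:**
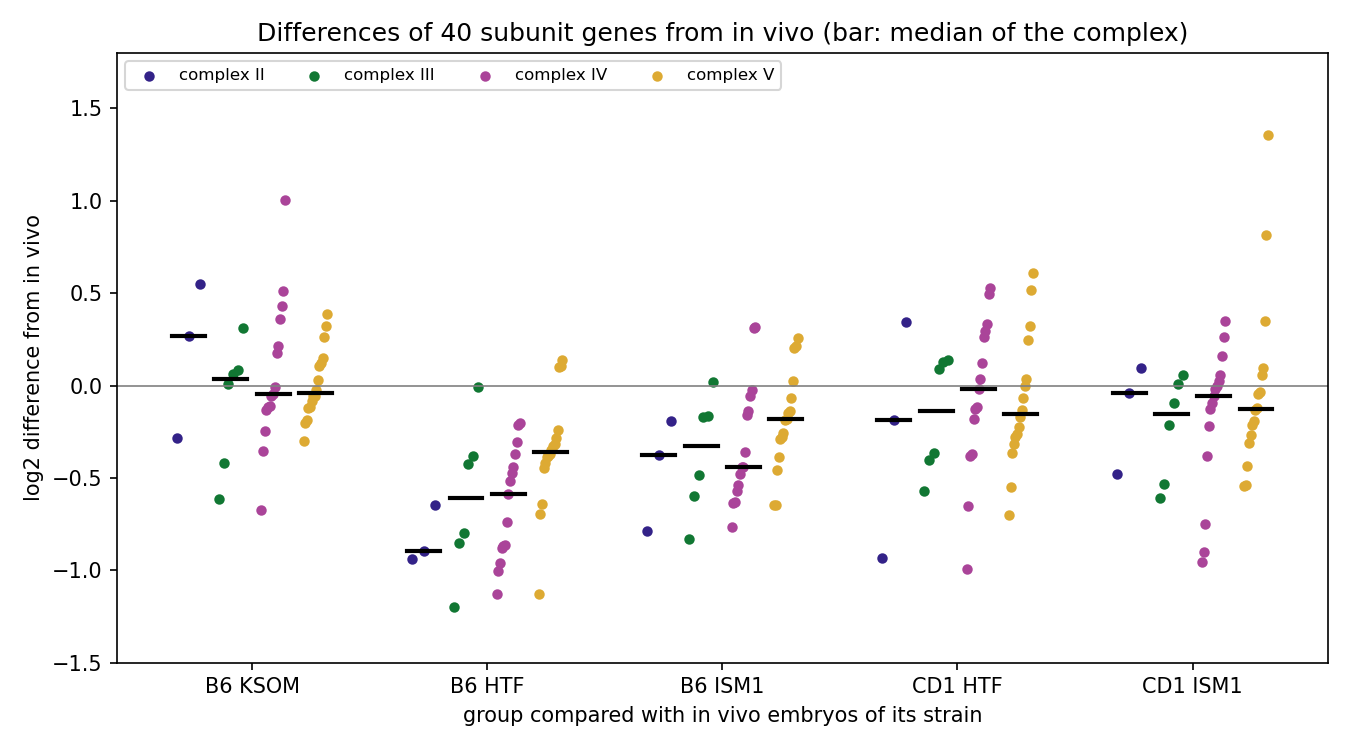
Difference of each of the 40 members from in vivo blastocysts of its own strain (vertical axis, log2), for the 5 cultured groups with replicates (horizontal axis), with 1 point per gene, coloured by complex, and a bar at the median of each complex. In B6 HTF the medians lie between -0.89 and -0.36, and in CD1 HTF between -0.19 and -0.02, where median scaling turned the median over the members positive.

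In complex II, all 3 measured genes were lower in B6 HTF than in B6 in vivo without overlap. Sdhb, the iron-sulfur subunit, read 9.79, 9.53 and 9.12 in HTF and 10.52, 9.80 and 10.79 in vivo. The highest HTF array and the lowest in vivo array of Sdhb nearly met. The difference was -0.89 (SE 0.43, adjusted p = 0.999 by limma), and the second probe of the gene gave -0.87.

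Sdhc, which with Sdhd anchors the complex in the membrane and binds ubiquinone, read 10.23, 10.60 and 10.42 in B6 HTF and 11.17, 11.07 and 10.95 in vivo. Every HTF array lay below every in vivo array, and the difference was -0.65 (SE 0.29, adjusted p = 0.999). Sdhd read 7.34, 7.86 and 7.91 in B6 HTF and 8.47, 8.97 and 8.48 in vivo, a difference of -0.94 (SE 0.44, adjusted p = 0.999). Sdhd was also low in CD1 HTF, with 7.98, 8.03 and 8.51 against 8.50, 9.18 and 9.63 in vivo, where the highest HTF array only just reached the lowest in vivo array. The CD1 difference was -0.93 (SE 0.44, adjusted p = 0.701), and the difference between the strains was 0.00 (SE 0.62).

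In complex III the largest differences were those of small subunits. Uqcrh, the hinge protein beside cytochrome c1, read 9.17, 8.27 and 7.95 in B6 HTF and 9.76, 8.75 and 10.49 in vivo. Its difference was the largest of the complex at -1.20 (SE 0.48, adjusted p = 0.999), although the groups overlapped. Uqcr11, another small subunit, read 10.62, 10.22 and 10.24 in HTF and 10.98, 11.25 and 11.39 in vivo, with no overlap and a difference of -0.85 (SE 0.39, adjusted p = 0.999).

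Uqcrb, a small subunit next to the quinone site, read 7.77, 7.79 and 7.9997 in B6 HTF and 8.26, 8.26 and 9.45 in vivo. In CD1 it read 8.31, 8.24 and 8.77 in HTF and 8.96, 9.14 and 8.92 in vivo. Uqcrb was the 1 member whose HTF arrays lay below the in vivo arrays in both strains, against 0.717% of all genes, although median scaling turned its CD1 difference from -0.57 to 0.19. Its difference averaged over the strains was -0.68 (SE 0.28, adjusted p = 0.518). Of the core proteins, Uqcrc2 had a B6 difference of -0.01. Uqcrc1 read 12.92, 11.78 and 11.28 in HTF and 12.03, 12.11 and 12.98 in vivo, with overlap and means of 11.99 and 12.38. The small subunit Uqcr10 differed by -0.42, also with overlap.

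In complex IV all 15 members had a negative difference between B6 HTF and B6 in vivo. Cox6a2 and Cox8c were each detected on 0 of 3 B6 HTF arrays and 1 of 3 B6 in vivo arrays. Cox6b2 was detected on 1 of 3 and 2 of 3, so the signs of these genes say little. Cox6b1, a subunit on the face that docks cytochrome c, had the smallest p of all members. It read 12.22, 11.64 and 12.08 in HTF and 12.84, 12.64 and 13.04 in vivo, without overlap. The difference was -0.86 (SE 0.24, adjusted p = 0.815), and the gene's second probe gave -1.18.

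Cox5b, a zinc-binding subunit on the matrix side, read 11.58, 11.33 and 11.44 in B6 HTF and 12.64, 12.35 and 12.74 in vivo. The gap between the groups was wider than the range within either, and the difference was -1.13 (SE 0.33, adjusted p = 0.9). Cox8a, the common form of subunit 8, read 12.50, 11.50 and 11.69 in HTF and 12.59, 12.40 and 13.32 in vivo, a difference of -0.87 (SE 0.34, adjusted p = 0.999). HTF replicate 1 of Cox8a lay within the in vivo range.

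Cox4i1, the common form of subunit 4, read 13.73, 13.52 and 13.50 in B6 HTF and 13.78, 13.88 and 14.00 in vivo, with no overlap but a difference of only -0.31. Cox6a1, the common form of subunit 6A, differed by -1.004 (second probe -1.19) with overlap. Cox7a2, the common form of subunit 7A, read 8.58, 9.57 and 6.89 in B6 in vivo and 7.93, 7.98 and 7.69 in HTF, so that its in vivo spread enclosed the HTF arrays. Cox7a2l, which helps join complexes III and IV, differed by -0.44, and Cox5a by -0.37. Cox7a1, Cox7b and Cox7c were the other members of the complex without overlap, and Cox7a1 differed by -0.88 (SE 0.46, adjusted p = 0.999).

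In complex V 13 of 16 genes had a negative difference between B6 HTF and B6 in vivo. The others were Atp5a1 and Atp5b, for the alpha and beta subunits of the catalytic head, and Atp5g3, at 0.10 to 0.14. Among the 13, Atp5k, Atp5l and Atp5o were each detected on at most 2 of 3 arrays of either group, so their signs say little. Atp5c1, for the gamma subunit of the central stalk, read 13.67, 13.68 and 13.72 in HTF and 14.35, 14.08 and 13.81 in vivo, with no overlap. Atp5g1, Atp5g2 and Atp5g3 encode the same ring subunit c. Atp5g1 read 12.07, 11.58 and 11.02 in HTF and 12.80, 12.02 and 13.25 in vivo, overlapping slightly, with a difference of -1.13 (SE 0.43, adjusted p = 0.999).

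Atp5j2, for subunit f of the membrane part, read 12.37, 11.76 and 11.75 in B6 HTF and 12.77, 12.69 and 12.51 in vivo, with a difference of -0.70 (SE 0.34, adjusted p = 0.999). Atp5h, for subunit d of the peripheral stalk, read 11.71, 11.74 and 11.76 in HTF and 12.20, 12.20 and 12.16 in vivo. These 6 values of Atp5h hardly varied within a group, and the difference was -0.45 (SE 0.28, adjusted p = 0.999). Atp5e, Atp5j and Atp5mpl were the other members of the complex without overlap, all lower in HTF.

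**Figure D3:**
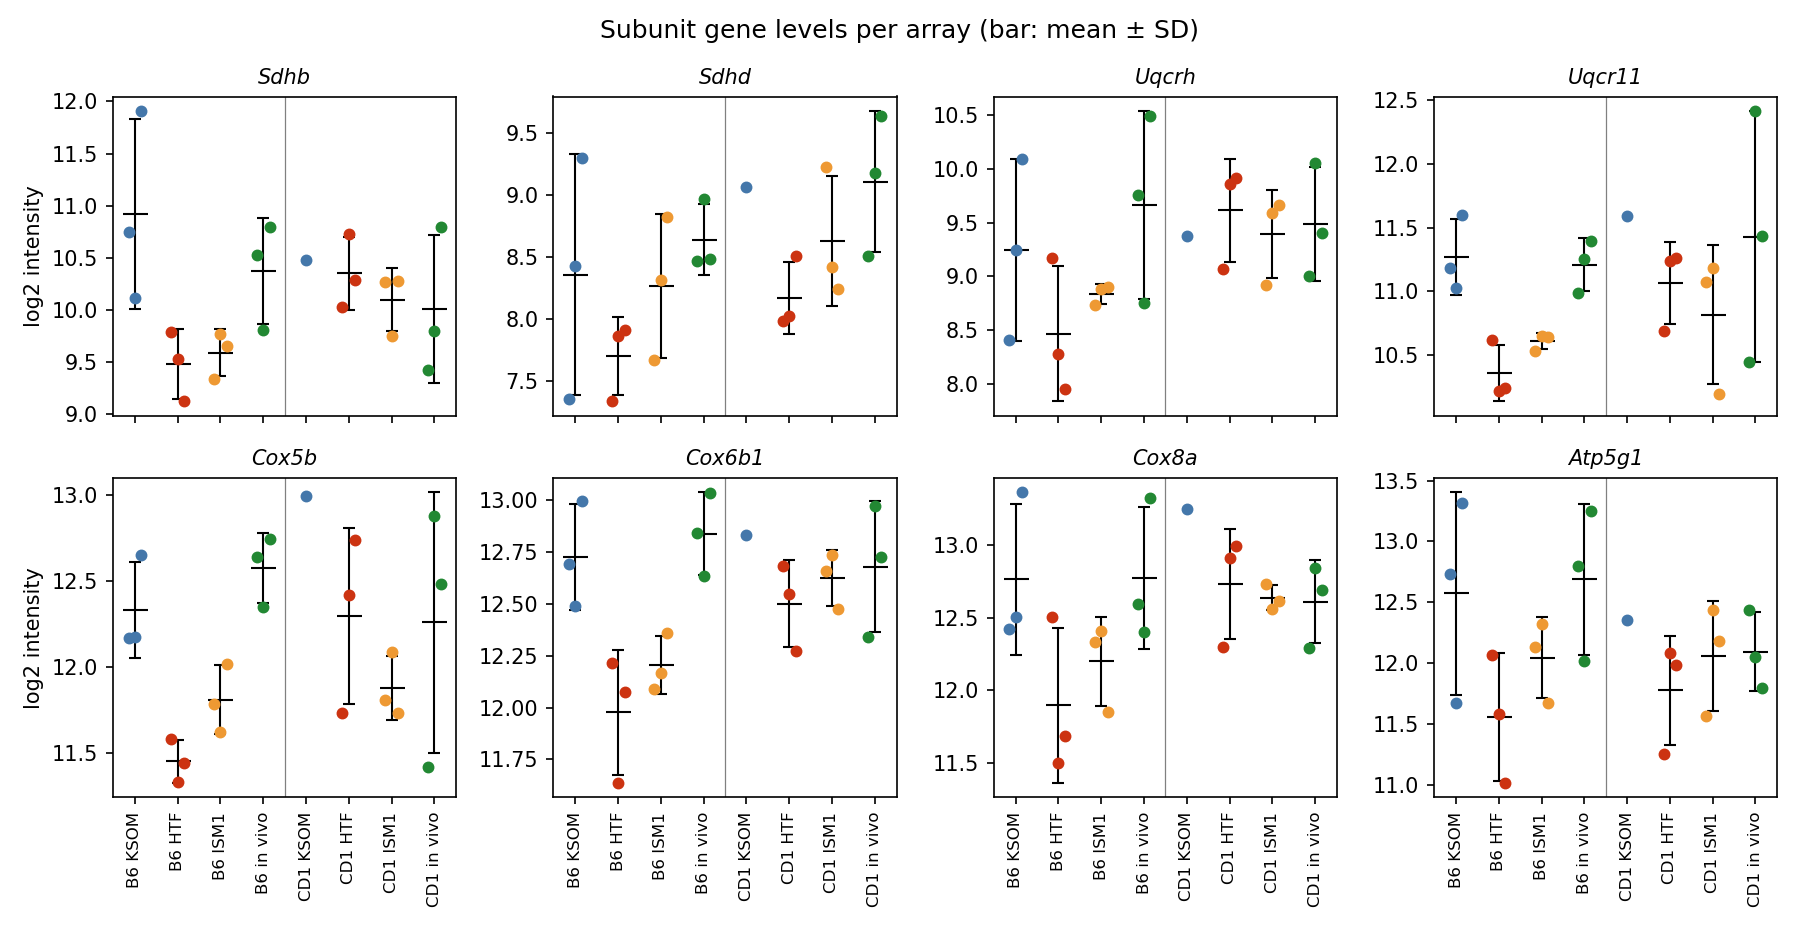
Log2 intensity (vertical axes) of 8 member genes on each array, by group (horizontal axes), with 1 point per array and, where a group has 3 arrays, a bar at the mean and whiskers of 1 SD. Cox5b and Cox6b1 in B6 HTF lie below every B6 in vivo array, while the CD1 HTF and CD1 in vivo points of Cox5b overlap.

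CD1 blastocysts grown in HTF had values closer to those of in vivo development. The difference was negative for 24 of 40 members, against 47.2% of all genes, with a median of -0.12, which median scaling turned to 0.28 with 10 members lower. Median scaling shifted the median of all genes to 0.46, and relative to it the members stood at -0.18. The median was -0.05 without CD1 HTF replicate 1, -0.03 without CD1 in vivo replicate 2 and -0.02 without CD1 in vivo replicate 3. With limma 0 members were called, against 0.0107% of all genes, and 2 had an unadjusted p under 0.05 (Sdhd and Atp5a1, both lower), against 7.06% of all genes. Every CD1 in vivo array was dimmer than every CD1 HTF array (median intensity 90.6 to 112 against 113 to 138).

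Groups of CD1 did not overlap for 3 members lower in HTF, against 4.32% of all genes, and for 1 member higher, against 6.06%. The 3 were Uqcrb, Atp5a1 and Atp5g3. Atp5a1 read 12.52, 12.30 and 12.28 in HTF and 13.27, 12.88 and 13.06 in vivo, a difference of -0.70 (SE 0.30, adjusted p = 0.644), while in B6 it was 0.14. Cox6a2 was the member higher in HTF, at 5.44, 5.76 and 5.61, and was not detected on any CD1 in vivo array. Atp5d, for the delta subunit of the central stalk, had 0.61 (SE 0.42, adjusted p = 0.846), and CD1 in vivo replicate 2 alone was low at 9.73. Without that array the value was -0.04.

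Cox5b and Uqcrh were near equal in CD1. Cox5b read 11.73, 12.42 and 12.74 in HTF and 11.41, 12.88 and 12.48 in vivo, a difference of 0.04 with a 95% interval of -0.66 to 0.74. For Uqcrh it was 0.13 with an interval of -0.87 to 1.13. The lower bounds lay above the B6 estimates of -1.13 and -1.20, and both intervals overlapped those of the B6 values, -1.83 to -0.43 for Cox5b and -2.20 to -0.20 for Uqcrh. Cox7a2 differed by -0.99 (SE 0.62, adjusted p = 0.806), since CD1 in vivo replicates 2 and 3 stood at 10.60 and 9.94 and replicate 1 at 7.92.

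The test of the difference between the strains called 0 of 40 members and 0% of all genes. The HTF effect was more positive in CD1 than in B6 for 35 members, against 52.2% of all genes, with a median of 0.44. That median was 0.19 without CD1 in vivo replicate 1, the array with the lowest median intensity (90.6, against 154 on the brightest). The whole CD1 in vivo group was dim, at 90.6 to 112, against 113 to 138 in CD1 HTF and 127 to 149 in B6 in vivo. With array brightness as a covariate the median difference between the strains was 0.48. Brightness and group went together here and were not told apart. Cox5b alone had an unadjusted p under 0.05, against 1.99% of all genes, with a difference between strains of 1.16 (SE 0.47, adjusted p = 1). Sdhb had 1.24 (SE 0.60), Uqcrh 1.33 (SE 0.67), Cox8a 0.99 (SE 0.48) and Atp5a1 -0.83 (SE 0.42), each with an adjusted p of 1. A difference between the strains in the HTF effect was therefore not shown for any single member.

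Averaged over the strains, HTF was below in vivo growth for 35 members, against 48.6% of all genes, with a median of -0.29. Under median scaling it was -0.11, against 0.20 for all genes. With limma 0 members were called, against 0.203% of all genes (19 genes), and 6 members, all lower, had an unadjusted p under 0.05, against 3.51% of all genes. The smallest adjusted p belonged to Cox6b1 (-0.52, SE 0.17, adjusted p = 0.369) and Sdhd (-0.94, SE 0.31, adjusted p = 0.372). Cox6b1 was called with array quality weights (-0.65, adjusted p = 0.0454), against 0.824% of all genes called lower. In order of p, Uqcrb followed with the value given above, then Atp5g1 at -0.72 (SE 0.30, adjusted p = 0.518), Cox5b at -0.54 (SE 0.24, adjusted p = 0.545) and Uqcr11 at -0.61 (SE 0.27, adjusted p = 0.568).

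B6 blastocysts grown in ISM1 also had mostly lower values than B6 in vivo. The difference from in vivo was negative for 33 of 40 members, against 50% of all genes, with a median of -0.27. All ISM1 arrays lay below all in vivo arrays for 7 members, against 3.73% of all genes, namely Sdhb, Uqcr11, Cox5b, Cox6b1, Atp5j2, Atp5mpl and Atp5o, and above them for 0, against 4.55%. With limma 0 members were called, as were 0% of all genes, and 2 had an unadjusted p under 0.05, against 1.19% of all genes. They were Cox6b1 (12.09, 12.17 and 12.36 in ISM1, difference -0.63, SE 0.24, adjusted p = 0.999) and Cox5b (11.79, 11.62 and 12.02, difference -0.77, SE 0.33, adjusted p = 0.999).

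With array quality weights, 5 members were called lower in B6 ISM1, against 7.05% of all genes, and Cox6b2 was called higher, against 7.17%. The 5 were Sdhb, Uqcrh, Cox5b, Cox6b1 and Atp5c1. Those weights gave B6 ISM1 replicate 2 a weight of 4.26 and replicate 3 one of 0.579. Atp5o was not detected on any B6 ISM1 array and on 2 of 3 in vivo arrays, so that its level in ISM1 has only an upper bound. The blood marker Hba-a1 was lower in B6 ISM1 than in vivo here too, at a linear level of 25.9 to 29.8 against 37.2 to 151. No B6 ISM1 array detected it, and its part was not tested.

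In CD1 the ISM1 values lay closer to in vivo. The difference was negative for 27 members, against 49.8% of all genes, with a median of -0.09, which median scaling turned to 0.08 while it moved all genes to 0.21. Without CD1 ISM1 replicates 1, 2 or 3 the median was -0.06, -0.14 and -0.15, and without CD1 in vivo replicates 1 or 2 it was -0.21 and -0.04. With array brightness as a covariate it was also -0.04. No member was called with limma, as were 0% of all genes, and Atp5pb alone had an unadjusted p under 0.05, against 5.04% of all genes. Atp5pb, for subunit b of the peripheral stalk, read 6.63, 7.01 and 6.94 in CD1 ISM1 and 5.70, 4.55 and 6.27 in vivo, a difference of 1.35 (SE 0.48, adjusted p = 0.952). It was the 1 member higher in ISM1 without overlap, against 2.66% of all genes, and 0 were lower without overlap, against 2.54%.

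Averaged over the strains, ISM1 was below in vivo for 32 members, against 49.3% of all genes, with a median of -0.19 (-0.09 under median scaling, against 0.12 for all genes), and 0 members were called by limma, as were 0% of all genes. At an unadjusted p under 0.05, which 3.29% of all genes reached, were Uqcr11 (-0.61, SE 0.27), Cox5b (-0.58, SE 0.24), Cox7a1 (-0.69, SE 0.33) and Atp5pb (0.80, SE 0.34), each with an adjusted p of 0.998. The strains' ISM1 effects differed by a median of 0.04 over the members, which leaving out single arrays moved between -0.02 (without CD1 in vivo replicate 1) and 0.20 (without CD1 in vivo replicate 2). Brightness as a covariate gave 0.12 and median scaling 0.18 (all genes 0.20). Of the members, 23 of 40 were more positive in CD1, against 49% of all genes. No member was called there, as were 0% of all genes, and Atp5o had an unadjusted p under 0.05, against 2.38% of all genes. The Atp5o probe was detected on 0 of 3 B6 ISM1 arrays, 0 of 3 CD1 in vivo arrays and 1 of 3 CD1 ISM1 arrays. Its value there rests largely on readings near background.

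B6 embryos grown in KSOM had subunit gene values around those of in vivo embryos. The difference was negative for 21 members, against 49.5% of all genes, with a median of -0.02. The array medians over the members were -0.11, 0.02 and 0.62. Without replicate 3 the median difference from in vivo was -0.12 and 31 members were lower, and without replicate 1 it was 0.12 and 9 were lower. Leaving out any other of the 6 arrays gave medians between these, and the other settings gave -0.06 to -0.000484. Hba-a1 was lower in KSOM than in vivo (linear level 22.5 to 28.96 against 37.2 to 151) and was not detected on any B6 KSOM array. The summed level of the oviduct and uterine markers Ovgp1 and Muc1 was 94.7 to 102 against 76.8 to 94.4, ranges that nearly met. Each of these genes alone overlapped between the groups. The muscle marker Ckm was higher in KSOM without overlap (6.30, 5.39 and 8.07 against 4.72, 4.71 and 4.86), while the muscle marker Myh6 overlapped. The part of these markers was not tested. With limma 0 members were called, as were 0% of all genes, and 0 had groups without overlap, against 3.4% of all genes lower and 4.78% higher. Cox6b2 alone had an unadjusted p under 0.05, against 5.92% of all genes, reading 6.56, 6.88 and 7.14 in KSOM and 5.57, 5.27 and 6.73 in vivo (difference 1.00, SE 0.42, adjusted p = 0.791).

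Set against HTF, B6 KSOM was higher for 35 members, against 50.4% of all genes, with a median of 0.59. This comparison and that of B6 HTF with in vivo share the HTF arrays. All KSOM arrays lay above all HTF arrays for 14 members, against 8.74% of all genes, and below them for 0, against 6.28%. With limma 0 were called, against 0.0107% of all genes. Without KSOM replicate 3, which was the highest of its group for 29 members, the median was 0.33 and 32 members were higher. Sdhb was called without KSOM replicate 2 (1.85, adjusted p = 0.0482), in a fit that called 129 genes in all and 0.471% of all genes higher.

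Sdhb read 10.74, 10.11 and 11.91 in B6 KSOM, all above the HTF arrays, with a difference of 1.44 (SE 0.43, adjusted p = 0.445). Sdhc read 11.08, 11.16 and 11.77, again all above HTF, with a difference of 0.92 (SE 0.29, adjusted p = 0.447). Cox6b2 was 1.52 higher (SE 0.42, adjusted p = 0.426), and it was detected on 1 of 3 HTF arrays. Cox6a1 was also 1.52 higher (SE 0.49, adjusted p = 0.448), with KSOM replicate 3 at 12.67 and the others at 11.15 and 10.40. In all, 12 members had an unadjusted p under 0.05, all higher in KSOM, against 4.89% of all genes, and 5 were called with array quality weights, against 0.92% of all genes called higher. These 5 were Sdhb, Cox6a1, Cox6b1, Cox6b2 and Atp5j2.

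A muscle marker was high on the same KSOM array. Ckm, the muscle creatine kinase, read 8.07 on B6 KSOM replicate 3 and at most 6.70 elsewhere. On KSOM replicates 1 and 2 it read 6.30 and 5.39, and in B6 HTF 5.34, 5.02 and 5.07. Ckm was thus higher in KSOM than in HTF without overlap, while Myh6 overlapped. Of the 3 muscle markers Ckm was detected on 8 arrays, Myh6 on 4 and Acta1 on 0, and their summed linear level was 71.7 to 304 in B6 KSOM and 68.7 to 73.2 in B6 HTF. Its part in these values was not tested. The summed level of the trophectoderm markers was 37205 to 44010 in B6 KSOM and 37587 to 41276 in B6 HTF. That of the inner cell mass markers was 6421 to 10660 and 10246 to 11901, and that of the primitive endoderm markers 4910 to 8637 and 7869 to 13460. Both reached lower in KSOM, with a small overlap, and their part was not tested.

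B6 KSOM was above B6 ISM1 for 28 members, against 50.8% of all genes, with a median of 0.36, which was 0.15 without KSOM replicate 3, 0.14 with array quality weights and 0.22 under median scaling (all genes -0.09). The summed primitive endoderm markers were lower in KSOM without overlap (4910 to 8637 against 8707 to 10424). Those of the oviduct and uterine epithelium were higher as a sum (94.7 to 102 against 70.7 to 79.9), although Ovgp1 alone overlapped. Ckm was also higher in KSOM without overlap (6.30, 5.39 and 8.07 against 4.79, 4.88 and 4.89), while Myh6 overlapped. The part of these markers was not tested. The arrays did not overlap for 12 members higher in KSOM, against 8.81% of all genes, and for 0 lower, against 7.15%. No member was called by limma, as were 0% of all genes, and 3 had an unadjusted p under 0.05, against 12.3%. Sdhb had the smallest p, with a difference of 1.33 (SE 0.43, adjusted p = 0.268), and was called without KSOM replicate 2 (1.74, adjusted p = 0.042), in a fit that called 296 genes in all and 1.36% of all genes higher. Cox6b1 was higher by 0.52 (SE 0.24, adjusted p = 0.399).

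The media HTF and ISM1 differed little from each other when averaged over the strains. Within B6, HTF stood lower, with a mean of the array medians over the members of -0.34, against -0.11 in ISM1. The arrays of these groups overlapped, at -0.45 to -0.15 and -0.19 to 0.02. In CD1 the means were -0.04 for HTF and -0.04 for ISM1. HTF was not tested against ISM1 within either strain. The averaged difference was negative for 28 members, against 49.2% of all genes, with a median of -0.07. That median ranged from -0.12 (without B6 HTF replicate 1) to -0.01 (without CD1 HTF replicate 1) as single arrays were left out. It was -0.12 with array quality weights, and under median scaling it was -0.000966 with 20 members lower, against 0.08 for all genes. With limma 0 members were called, against 0.0963% of all genes. Cox5a, a subunit of the matrix side, alone had an unadjusted p under 0.05, against 5.41% of all genes. It read 13.34, 12.92 and 12.73 in B6 HTF and 13.98, 13.79 and 13.28 in B6 ISM1, overlapping slightly, and 12.68, 13.17 and 13.56 in CD1 HTF against 12.91, 13.68 and 13.91 in CD1 ISM1, with a mean difference of -0.53 (SE 0.22, adjusted p = 0.804).

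Over the 7 groups with 3 arrays, B6 HTF had the lowest mean for 25 of 40 members (62.5%), against 11.5% of all tested genes. The highest mean was found in CD1 in vivo for 14 members (35%, against 20.6% of all genes), in B6 KSOM for 11 (27.5%, against 24.2%) and in B6 in vivo for 10 (25%, against 10.2%). The median gap between the highest and the lowest group mean was 0.87 for the members and 0.92 for all genes. The median SE of a difference between groups of 3 arrays was 0.34 for the members and 0.43 for all genes.

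**Figure D4:**
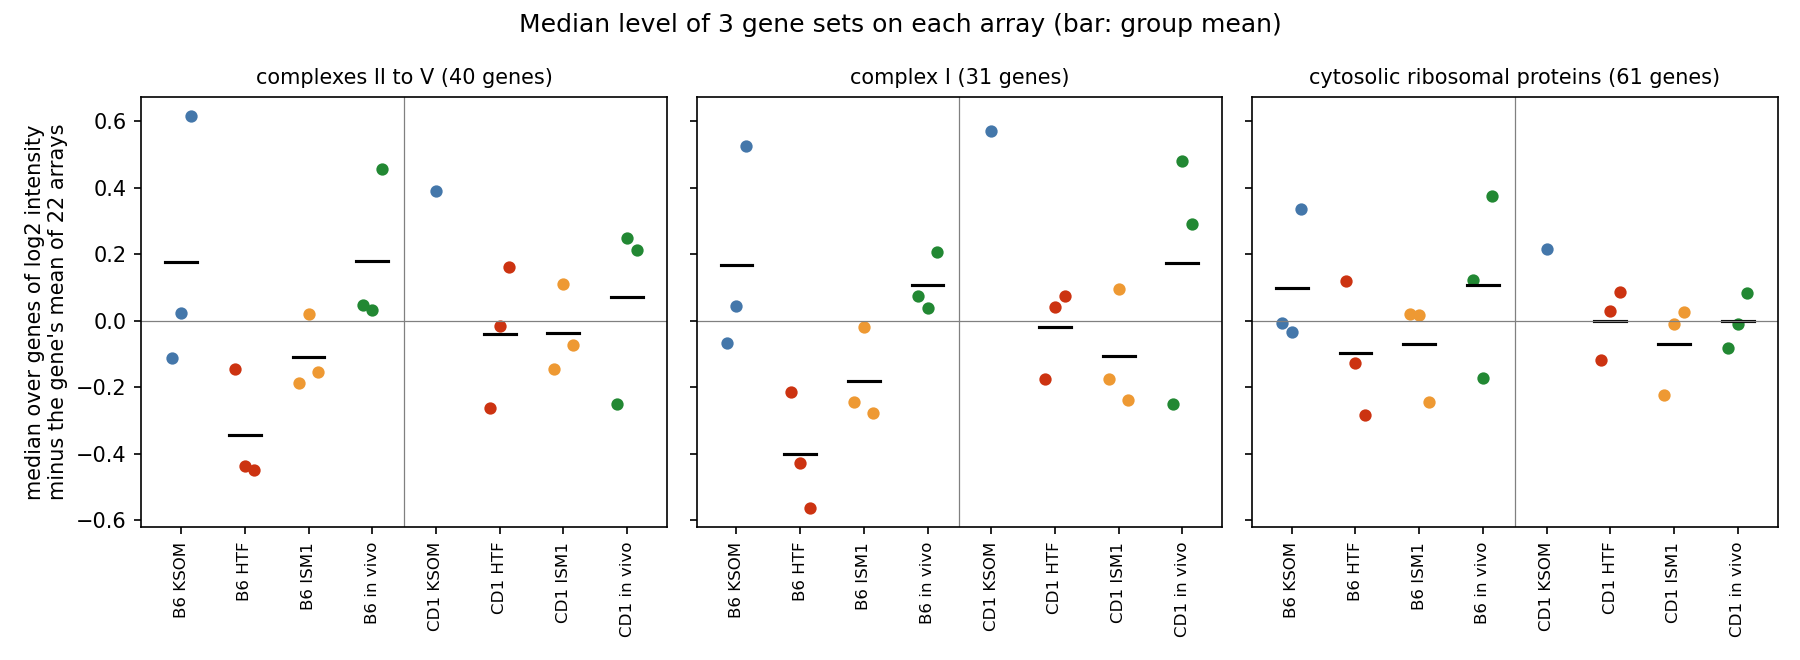
Median over the genes of log2 intensity minus the mean of the gene over 22 arrays (vertical axes), on each array by group (horizontal axes), for the 40 members, 31 complex I subunit genes and 61 cytosolic ribosomal protein genes, with a bar at each group mean. For the members the B6 HTF arrays stand at -0.15, -0.44 and -0.45 and the B6 in vivo arrays at 0.05, 0.03 and 0.46.

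Complex I subunit genes, the other nuclear part of the chain, had similar values in B6. All 31 measured complex I genes were lower in HTF than in vivo, with a median of -0.63. Of 61 cytosolic ribosomal protein genes, also short and abundant transcripts, 43 were lower, with a median of -0.19. In CD1 HTF 22 of the 31 complex I genes were lower. In B6 ISM1 28 of the 31 complex I genes were lower than in vivo, with a median of -0.30. There 47 of the 61 ribosomal genes were lower too, with a median of -0.15. Whether complexes II to V differed from complex I or from the ribosomal genes was not tested.

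Between the strains in vivo, the members with the smallest p belonged to complex V. Of the 40 members, 22 were lower in CD1 than in B6, against 49.2% of all genes, with a median of -0.12, and under median scaling 34 were lower, with a median of -0.49 that equalled the shift of all genes (-0.49). The median was 0.12 without B6 in vivo replicate 3, 0.06 without CD1 in vivo replicate 1, -0.24 without B6 in vivo replicate 2 and -0.27 without CD1 in vivo replicate 2, and 0.03 with array quality weights. With limma 0 members were called, against 0.0107% of all genes, and 4 had an unadjusted p under 0.05, against 9.61%. Under median scaling 4 members were called lower (Cox7a2l, Cox7c, Atp5d and Atp5pb), against 6.2% of all genes. The groups did not overlap for 3 members lower in CD1, against 5.23% of all genes, and for 1 member higher, Atp5mpl, against 5.14%. The CD1 arrays were also dimmer than the B6 arrays without overlap (median intensity 90.6 to 112 against 127 to 149). They detected 8964 to 9831 probes, against 10406 to 10733. Strain and brightness cannot be told apart in this comparison.

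Atp5pb read 5.70, 4.55 and 6.27 in CD1 in vivo and 7.31, 6.33 and 6.99 in B6 in vivo, a difference of -1.37 (SE 0.48, adjusted p = 0.432). Its probe was not detected on 1 of the CD1 arrays. Atp5d read 11.73, 9.73 and 11.61 in CD1 and 12.05, 11.98 and 12.42 in B6, a difference of -1.13 (SE 0.42, adjusted p = 0.455), which the CD1 replicate at 9.73 enlarged. Atp5o was not detected on any CD1 in vivo array. Atp5a1 was 0.64 higher in CD1, with 1 overlapping B6 array at 12.95.

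An oviduct marker was high on CD1 in vivo replicate 1, which was also the lowest of its group for 25 members. Ovgp1, the oviductal glycoprotein, read 8.08 there and at most 5.48 on the other arrays. Of the 3 markers of oviduct and uterine epithelium Pax8 was detected on 0 arrays, and the summed linear level of Ovgp1 and Muc1 was 62.6 to 334 in CD1 in vivo and 76.8 to 94.4 in B6 in vivo. The level of Hba-a1 was 22.2 to 32.7 in CD1 in vivo, where no array detected it, and 37.2 to 151 in B6 in vivo. The part of these markers in the comparisons with CD1 in vivo was not tested.

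The single CD1 KSOM array allowed no test. It lay above all 3 CD1 in vivo arrays for 14 members, against 19.8% of all genes, and below all 3 for 4, against 17%. It was above the in vivo mean for 28 members, against 51.8% of all genes. Atp5pb stood at 7.70 against a highest in vivo value of 6.27, and Cox6b2 at 7.60 against 5.83. Cox5b stood at 12.996 against 12.88.

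The defining markers of the blastocyst were present on the arrays. All 6 trophectoderm markers, among them Cdx2, Krt8 and Gata3, were detected on all 22 arrays, as were Pou5f1 and Nanog of the inner cell mass. Gata6 of the primitive endoderm was detected on all 22 arrays and Gata4 on 9. The 4 cumulus and granulosa cell markers were detected on 0 arrays. Fewer cells of a type and less RNA of a gene per cell cannot be told apart in these bulk samples.

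Other genes of oxidative phosphorylation, listed by function, were about evenly split in B6 HTF. Of 50 tested electron carriers, assembly factors, exchange proteins and regulators, 29 were lower in B6 HTF than in vivo, with a median of -0.06, and 0 were called in this or any other comparison. The medians were -0.21 for 6 electron carriers and further subunits, -0.07 for 29 assembly factors, 0.13 for 5 genes of ADP, ATP and phosphate exchange and 0.03 for 10 regulators. Whether these lists differed from the members was not tested.

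Among the genes of these lists, Cox20, which helps to mature a mitochondrially encoded subunit of complex IV, was lower in B6 HTF by 1.501 (SE 0.38, adjusted p = 0.653) and by 1.17 averaged over the strains (SE 0.27, adjusted p = 0.0969). Cox14, an assembly factor of complex IV, was lower by 1.02 in B6 (SE 0.34, adjusted p = 0.999). Cyc1, the cytochrome c1 of complex III, which the symbol rule leaves out, was lower by 0.74 in B6 HTF (SE 0.37, adjusted p = 0.999). Etfa, a carrier of electrons from fatty acid oxidation, had -0.22 (SE 0.27), Vdac3 and Vdac2, channels of the outer membrane, had 0.31 (SE 0.51) and -0.15 (SE 0.32), each with an adjusted p of 0.999. Tfam, which maintains mitochondrial DNA, had 0.40 (SE 0.43), and Gabpb1, the partner of GABPA, had -0.52 (SE 0.52), each with an adjusted p of 0.999.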

How the data were processed

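RNA of whole blastocysts (150 ng, amplified with a 12 h in vitro transcription per the labels' protocols) was hybridised to Illumina MouseRef-8 arrays of 1 colour. The deposited non-normalized table held a bead intensity and a detection p-value for each probe and array, with BeadStudio 3.2 named in the submitters' processing notes. The authors' deposited value table held log2 intensities, and the same notes name RMA and lumi. In that table the sorted values of the arrays differed by at most 0.000774, as after quantile normalization. It served as an alternative only.

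Intensities were corrected and quantile-normalized with neqc of limma 3.58.1 in R 4.3.3 (negative controls inferred from detection p-values, offset 16). Of 25697 probes, 12992 were kept because 3 or more arrays detected them (detection p under 0.05). A symbol was given for 23978 probes and none for 1719, and the kept probe with the highest mean stood for a gene, which left 9345 genes. Group means of all 22 arrays were fitted with limma's lmFit and eBayes (14 residual degrees of freedom), and p-values are two-sided. Calls needed a Benjamini-Hochberg adjusted p under 0.05 over the 9345 genes. The number of arrays limits the precision. CD1 KSOM, with 1 array, entered no test.

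Genes to name were picked by a rule: called members, otherwise the 3 with the smallest p per complex and comparison (2 for complex II), and a list of core subunits and tissue forms. The text does not give a value for every gene so picked in every comparison. Pathway genes were named if called and otherwise as the 2 of each list with the smallest p, and further genes in the text were chosen after their values were seen. The members and lists were chosen with earlier results of these data known. Alternatives were the deposited log2 values, median scaling, no filter, the mean of a gene's probes, the replicate number as a block, array weights, only the compared arrays, array brightness as a covariate, and leaving out each array. The statistics were tested on simulated data. Slide and scan of the arrays were not given in the sources used here and were not modelled. The p-values measure the spread between arrays, which the labels call biological replicates.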

Additional observations from a re-analysis of the deposited data

How the results depend on the processing

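In B6 HTF against in vivo the members' median lay between -0.58 and -0.45 under the other settings and between -0.56 and -0.37 with single arrays left out, with 35 to 38 members lower. Array quality weights called 14 members there, among 1159 of all 9345 genes, and 1 in the averaged HTF comparison, among 165 genes. They called 6 in B6 ISM1, among 1329 genes, and 5 between B6 KSOM and B6 HTF, among 221. The fit with equal weights called 0 members in each. Median scaling gave a median of 0.277 in CD1 HTF (all genes 0.46) and 0.855 in the strain difference of the HTF effect (all genes 0.48). Between the strains in vivo it gave -0.489 (all genes -0.49) and 4 called members, among 582 genes. With single arrays left out, the strain difference of the HTF effect ranged from 0.19 to 0.56, B6 KSOM against HTF from 0.33 to 0.67 with 0 to 1 members called, KSOM against ISM1 from 0.15 to 0.45 with 0 to 1 called, and CD1 against B6 in vivo from -0.27 to 0.12. Directions turned under median scaling for CD1 HTF (Uqcrb 0.19, Uqcr11 0.14), CD1 ISM1 (Uqcrb 0.18) and the strains in vivo (Sdhd -0.45, Uqcrb -0.55, Uqcr10 -0.00194). They turned with array weights for Sdhb in CD1 ISM1 (-0.26), Cox6a2 in B6 KSOM (0.0449) and Uqcrc1 between strains (0.0629), and with brightness as a covariate for Uqcrb in CD1 ISM1 (0.0211) and between strains (-0.26). With single arrays left out, directions turned for Uqcr11 (-0.86 to 0.13) and Atp5d (-0.0363 to 0.96) in CD1 HTF, and for Uqcr11 in the strain difference of the HTF effect (-0.00877 to 0.98). In CD1 ISM1 they turned for Uqcrb (-0.47 to 0.16) and Sdhb (-0.20 to 0.49), and in the strain difference of the ISM1 effect for Cox8c (-0.0696 to 1.16) and Sdhc (-0.00830 to 0.40). In B6 KSOM against in vivo they turned for Uqcrh (-0.88 to 0.00498), Atp5g2 (-0.0933 to 0.67), Cox8c (-1.13 to 0.10) and Cox6a2 (-0.61 to 0.0578). They also turned for Uqcrc1 (-0.12 to 0.30) and Uqcr10 (-0.15 to 0.0330) in HTF against ISM1, and for Uqcrc1 (-0.56 to 0.0228) and Uqcr10 (-0.0684 to 0.53) between the strains. The cause was not tested. With the replicate number as a block, the B6 HTF median stayed at -0.45 and 0 members were called. The numbers showed no regular pairing of the arrays: deviations of same-numbered arrays correlated at -0.72 to 0.52, and all 3 correlations passed 0.1 in 1 of 21 pairs of groups. That pair was CD1 HTF with CD1 ISM1 (0.18, 0.18 and 0.21). With 3 arrays a group these correlations cannot settle whether some arrays were paired. Probes near background, such as those of Cox6a2, Cox8c, Atp5k, Atp5l and Atp5o, limit what the arrays can resolve.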
